A study of Rattus norvegicus with 15 samples.

Results

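The genes described here are the liver enzymes that make glucose from lactate, alanine and glycerol, together with regulators of their expression: Pck1, Pck2, Pc, Fbp1, G6pc1, Slc37a4, Ppargc1a, Foxo1 and Irs2. Every probe set (a group of short probes that reads 1 transcript) whose platform symbol, current or older, is one of these names was taken. That gave 17 probe sets of 31042 non-control probe sets, and all 9 genes were among the 9596 genes tested. The livers were those of male Sprague dawley rats from Charles River, aged 7 weeks when the study began. All groups ate high fat chow, in which fat supplied 59% of kilocalories, and all were dosed by gavage each day over 6 weeks. Vehicle (0.5% methylcellulose) was one group, and the labelled ACC inhibitor PF-04923503 was given to the others, at a dose of 10 mg/kg or of 30 mg/kg. Each group had 5 samples, on 15 arrays in all. ACC is acetyl-CoA carboxylase, which makes malonyl-CoA. The comparisons ask how the inhibitor moved these genes at each dose and whether the doses differed. The labels do not say that the samples of a group came from separate animals, so the p-values speak only to the spread between these samples, and they do not give the time of day or the fasting state at collection.

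Gluconeogenesis starts in the mitochondrion, where pyruvate carboxylase (Pc) makes oxaloacetate, and acetyl-CoA is the allosteric activator of this enzyme. The phosphoenolpyruvate carboxykinases (Pck1 in the cytosol, Pck2 in the mitochondrion) turn oxaloacetate into phosphoenolpyruvate. Fructose-1,6-bisphosphatase (Fbp1) reverses a glycolytic step, and glucose-6-phosphatase (G6pc1) with its transporter (Slc37a4) releases free glucose in the endoplasmic reticulum. In fasting, glucagon and glucocorticoids raise transcription of Pck1 and G6pc1 with the help of the coactivator PGC-1alpha (Ppargc1a) and the forkhead factor FoxO1 (Foxo1). After a meal, insulin signals through docking proteins such as IRS-2 (Irs2) to the kinase Akt, which keeps FoxO1 out of the nucleus.

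None of the 9 genes passed the test at either dose or between doses (limma with Benjamini-Hochberg adjustment over 9596 genes, adjusted p under 0.05). The background is low: 0.104% of all genes were called at 10 mg/kg, 0% at 30 mg/kg, 0% between the doses and 0.146% for the mean of both doses, so 0 of 9 is no result about these genes by itself. Without adjustment, 2 of the 9 passed p under 0.05 at 10 mg/kg (Ppargc1a and Pck2), against 13.3% of all genes. At 30 mg/kg 1 of the 9 did (Irs2), against 16% of all genes. Between doses it was 1 of the 9 (Irs2), against 5.81%. Between both doses together and vehicle it was again 1 of the 9 (Ppargc1a), against 17.7%. Relative to vehicle, the 9 genes had a median log2 difference of 0 at the low dose and -0.04 at the high dose, against -0.02 and -0.03 over all genes. Levels below are log2 values of 1 probe set, and a difference of 1 is 2-fold. Levels are not compared between genes. These are whole-liver samples, in which fewer cells of a type and less RNA per cell cannot be told apart.

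Array medians lay between 6.08 and 6.12, and pairwise correlations over all probe sets between 0.989 and 0.996. The 11 measured hepatocyte markers, among them Alb and Ttr, had a summed level of 17.73 to 17.76 (log2) in every group, a sum carried by bright probe sets such as that of Alb (15.36, with 15.38 the highest value of all). Asgr1 and Asgr2, receptor subunits on the hepatocyte surface, stood below all vehicle samples at 10 mg/kg, at 0.867-fold and 0.909-fold (adjusted p = 0.197 and 0.235 by limma). Groups did not overlap there for 2.46% of all genes. Of the 11 markers, 6 had higher and 5 had lower means at 10 mg/kg, with a median log2 difference of 0. Cps1 stood at 1.09-fold (adjusted p = 0.281 by limma). Of 5 muscle markers, 0 passed the filter on dim probe sets. Vehicle sample 1 stood apart. In it, 111 genes (1.16%) lay more than 2-fold from the rest of its group, against 35 to 67 in the other 14 samples. Among the 9 genes it departed most for G6pc1. Results are therefore given also without this sample, at 1 or both doses, for G6pc1, Irs2, Ppargc1a, Pck1 and Pck2. It was singled out after these values were seen, so p-values without it are not independent of that choice.

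**Figure D1:**
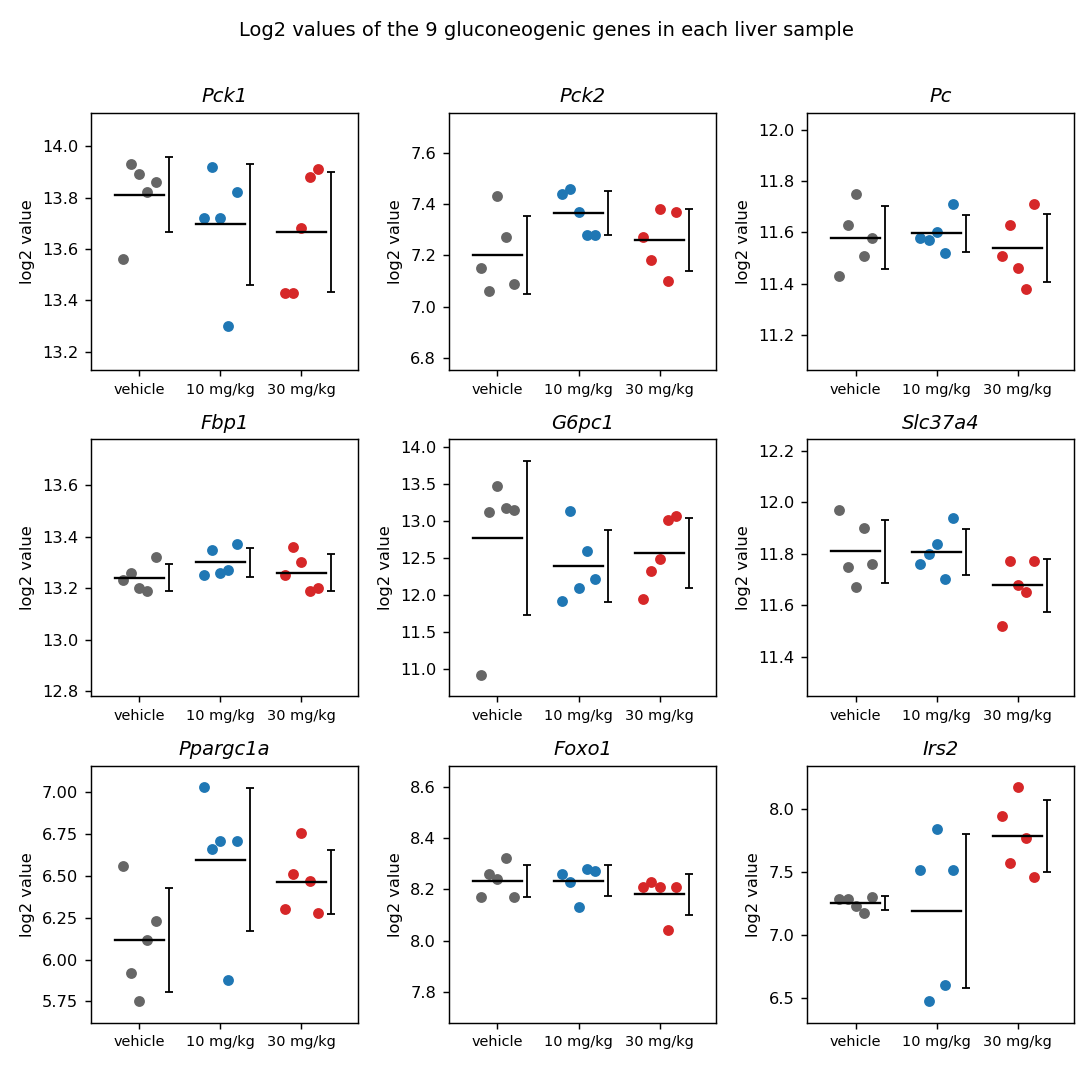
Log2 value of each of the 9 genes in each liver sample, by dose. Points are single samples, the horizontal bar is the mean and the bracket is 1 SD (n = 5). The vertical axes differ between panels. G6pc1 shows 1 low vehicle sample at 10.92, and Irs2 at 30 mg/kg lies from 7.46 to 8.17, above all 5 vehicle samples.

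The regulators come first, since with all samples the largest differences among the 9 genes were those of Irs2 and Ppargc1a. IRS-2 carries the insulin signal from the receptor to phosphatidylinositol 3-kinase, and its gene is itself induced in fasting and lowered by insulin in liver. Irs2 had log2 values of 7.28, 7.28, 7.23, 7.17 and 7.30 in vehicle samples, 7.51, 6.47, 7.84, 6.60 and 7.51 at 10 mg/kg, and 7.94, 7.57, 8.17, 7.77 and 7.46 at 30 mg/kg. All 5 samples at 30 mg/kg were above all 5 vehicle samples, whereas the 10 mg/kg samples lay on both sides of them. This was the 1 gene of the 9 whose groups did not overlap at 30 mg/kg, and 3.2% of all genes did not overlap in either direction there (0.844% with the treated group higher). Groups were apart for 0 of the 9 at 10 mg/kg (2.46% of all genes), between the doses (0.938%) and for both doses against vehicle (0.604%).

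The Irs2 mean at 30 mg/kg was 7.78 ± 0.29, against 7.25 ± 0.05 in vehicle (SD, n = 5 each). The difference was 0.53, which is 1.44-fold (95% confidence interval 1.04 to 2.01), with an unadjusted p of 0.0325 and an adjusted p of 0.267 by limma. The exact two-sided permutation test gave p = 0.00794, the smallest that 5 against 5 allows, 1 of 27 such tests over the 9 genes and the comparisons. At 10 mg/kg the mean was 7.18 ± 0.61, and the fold over vehicle was 0.953 (0.684 to 1.33). Between the doses, the difference was 0.60 (1.51-fold, 1.09 to 2.11) with an adjusted p of 0.851 by limma.

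The spread of Irs2 also differed between groups. Its vehicle SD of 0.05 was larger than that of only 7.47% of genes, and its SD of 0.61 at 10 mg/kg was larger than that of 98.9%. Limma pools 1 spread per gene over the groups. The 2 low samples at 10 mg/kg were samples 2 and 4. Without vehicle sample 1, Irs2 was 1.45-fold higher at 30 mg/kg than in vehicle (1.01 to 2.09, adjusted p = 0.299 by limma).

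PGC-1alpha coactivates FoxO1, HNF4alpha and the glucocorticoid receptor at gluconeogenic genes, and its gene is a cAMP target in liver. A promoter window of it is shown for that reason. The 250 bases before the start used in the RefSeq promoter table (build GRCr8, chr14:63634058-63634307, + strand), 5′ to 3′, hold the full palindrome of the cAMP response element, in capitals, 181 to 174 bases before that start. This start lies inside the annotated gene (63073505 to 63729215), not at its first base, and which start these livers used was not measured.
Ppargc1a: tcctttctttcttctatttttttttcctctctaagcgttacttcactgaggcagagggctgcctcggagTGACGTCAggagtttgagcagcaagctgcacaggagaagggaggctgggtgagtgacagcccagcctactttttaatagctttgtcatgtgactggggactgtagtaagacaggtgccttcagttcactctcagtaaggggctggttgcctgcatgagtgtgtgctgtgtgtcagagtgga

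Ppargc1a had log2 values of 6.56, 5.92, 5.75, 6.12 and 6.23 in vehicle samples, 7.03, 6.66, 6.71, 5.88 and 6.71 at 10 mg/kg, and 6.30, 6.51, 6.76, 6.47 and 6.28 at 30 mg/kg. All but sample 4 at 10 mg/kg were above every vehicle sample, and at 30 mg/kg all 5 exceeded 4 of the 5 vehicle samples, with vehicle sample 1 the exception. The mean was 6.60 ± 0.43 at 10 mg/kg, against 6.12 ± 0.31 in vehicle (SD, n = 5 each), a difference of 0.48 (1.4-fold, 1.06 to 1.84) with an unadjusted p of 0.0213 and an adjusted p of 0.301 by limma. At 30 mg/kg the mean was 6.47 ± 0.19 and the fold was 1.27 (0.966 to 1.68, adjusted p = 0.371). Without vehicle sample 1 the folds were 1.51 (1.15 to 1.98, adjusted p = 0.182) at 10 mg/kg and 1.38 (1.05 to 1.81, adjusted p = 0.253) at 30 mg/kg. The groups then did not overlap at 30 mg/kg, which follows from leaving out the only vehicle sample that overlapped. Of all genes, 5.9% were then apart in either direction, 157 of 9596 with the treated group higher. With all samples, exact two-sided permutation tests gave p = 0.0873 at 10 mg/kg and p = 0.0714 at 30 mg/kg. Exact two-sided permutation tests without that sample gave p = 0.0476 at 10 mg/kg and p = 0.00794 at 30 mg/kg. The other 2 Ppargc1a probe sets did not pass the filter on dim probe sets. The probe set used here lay close to the threshold of that filter. Vehicle values of 5.75 and 5.92 and the 10 mg/kg value of 5.88 were below it. The fifth highest value, on which the filter rests, was 6.66, in 10 mg/kg sample 2.

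FoxO1 binds the insulin response sequences of G6pc1, Pck1 and Irs2 and is released from Akt control when insulin is low. Foxo1 averaged 8.24 ± 0.06 at 10 mg/kg and 8.18 ± 0.08 at 30 mg/kg, against 8.23 ± 0.06 in vehicle (SD, n = 5 each). The folds over vehicle were 1 (0.93 to 1.08) and 0.963 (0.896 to 1.04). A second probe set that passed the filter gave a log2 difference of 0.08 at 30 mg/kg, of the opposite sign, so no direction is given for Foxo1. Its protein activity is set by phosphorylation and location, which this assay does not measure.

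G6pc1, which releases glucose from glucose-6-phosphate, was the most variable of the 9 genes. Its probe sets list several gene names (Psme3, Aoc3 and G6pc1) on the platform, and 1 of them was named through its accession in RefSeq. The 250 bases before its start (GRCr8, chr10:86807409-86807658, + strand) are shown because FoxO1 and insulin act on this promoter. The capitals mark TGTTTTG, the complement of the insulin response core CAAAACA, 186 to 180 bases before the start.
G6pc1: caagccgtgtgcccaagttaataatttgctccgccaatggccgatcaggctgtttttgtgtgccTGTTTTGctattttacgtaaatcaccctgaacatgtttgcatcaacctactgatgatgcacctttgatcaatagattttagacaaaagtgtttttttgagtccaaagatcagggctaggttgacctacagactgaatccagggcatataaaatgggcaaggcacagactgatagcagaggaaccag

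G6pc1 had log2 values of 10.92, 13.12, 13.47, 13.18 and 13.15 in vehicle samples, 11.92, 13.13, 12.10, 12.59 and 12.21 at 10 mg/kg, and 11.95, 12.32, 12.48, 13.01 and 13.07 at 30 mg/kg. Vehicle sample 1 lay 2.2 below the nearest other vehicle sample, and 4 of the 5 vehicle samples were above all treated samples but 1, at 13.13. With all 15 samples it averaged 12.39 ± 0.48 at 10 mg/kg and 12.57 ± 0.47 at 30 mg/kg, against 12.77 ± 1.04 in vehicle (SD, n = 5 each). The folds over vehicle were 0.771 (0.421 to 1.41, adjusted p = 0.722 by limma) at 10 mg/kg and 0.87 (0.475 to 1.59, adjusted p = 0.849) at 30 mg/kg. Both intervals include levels below and above vehicle. The exact two-sided permutation tests of 5 against 5 gave p = 0.516 at 10 mg/kg and p = 0.73 at 30 mg/kg.

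Without vehicle sample 1 the G6pc1 vehicle mean was 13.23 ± 0.16 (SD, n = 4). The folds were then 0.559 (0.385 to 0.811) at 10 mg/kg and 0.631 (0.435 to 0.916) at 30 mg/kg, with unadjusted p of 0.0048 and 0.0191 and adjusted p of 0.172 and 0.24 by limma. Of all genes, 14.6% and 16.3% had an unadjusted p under 0.05 in that fit. All 5 samples at 30 mg/kg then lay below the 4 vehicle samples, as did those of 4.26% of all genes, and the exact two-sided permutation tests of 5 against 4 gave p = 0.0238 at 10 mg/kg and p = 0.0476 at 30 mg/kg. No adjusted p passed with or without it. A second probe set that lists the same names followed the named one over the 15 arrays (r = 0.995), with 9.64 in vehicle sample 1 against 12.05 to 12.48 in the other 4. The low reading of vehicle sample 1 stood in both of these probe sets, which may share probes. The remaining probe sets with these names followed less closely (r = 0.572 and 0.672). Their log2 differences from vehicle were 0 and -0.05 at 10 mg/kg and -0.03 and -0.08 at 30 mg/kg. Which gene they read is not settled. Slc37a4 hands glucose-6-phosphate to the enzyme across the membrane. Its means were 11.81 ± 0.09 at 10 mg/kg and 11.68 ± 0.10 at 30 mg/kg, against 11.81 ± 0.12 in vehicle (SD, n = 5 each), with folds of 1 (0.906 to 1.1) and 0.913 (0.827 to 1.01, adjusted p = 0.352).

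**Figure D2:**
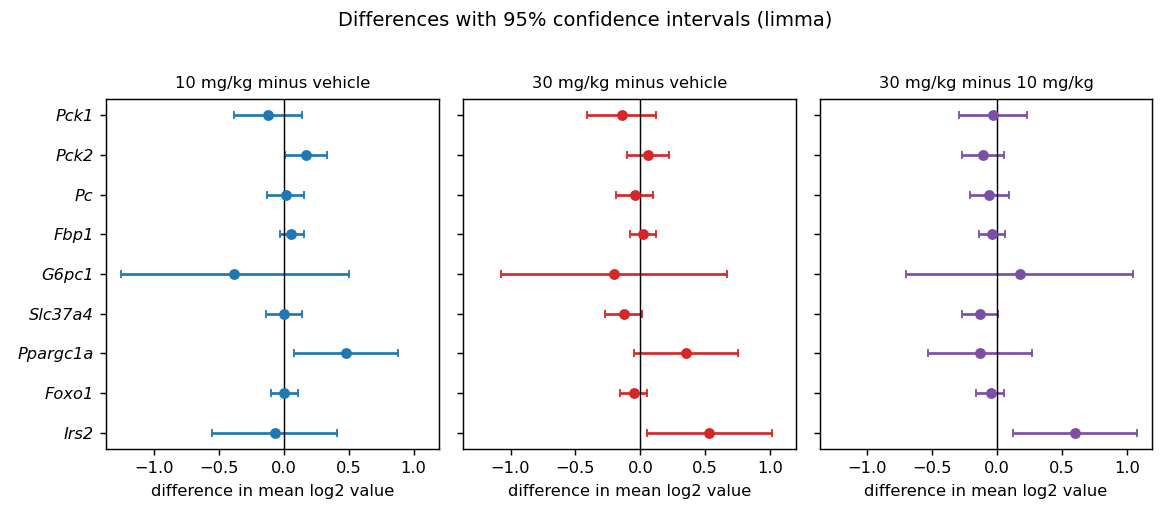
Difference in mean log2 value for each of the 9 genes at 10 mg/kg minus vehicle, 30 mg/kg minus vehicle and 30 mg/kg minus 10 mg/kg, with 95% confidence intervals from limma on all 15 samples. G6pc1 has the widest intervals, and Irs2 at 30 mg/kg lies at 0.53 with an interval of 0.05 to 1.01 that is unadjusted for the number of genes.

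Pck1, whose product commits oxaloacetate to glucose and is controlled mainly through transcription, is shown with its promoter because its cAMP response element is the textbook case. The letters TTACGTCA, a variant of that element chosen here with this promoter in mind, lie 93 to 86 bases before the start (GRCr8, chr3:182348322-182348571, + strand) and are in capitals.
Pck1: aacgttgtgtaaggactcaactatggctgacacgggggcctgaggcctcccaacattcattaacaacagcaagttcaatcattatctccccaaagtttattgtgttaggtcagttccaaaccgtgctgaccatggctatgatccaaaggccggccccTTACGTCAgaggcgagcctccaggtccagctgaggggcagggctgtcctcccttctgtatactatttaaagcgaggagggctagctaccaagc

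The full palindrome TGACGTCA occurs on either strand in 1.7% of the 27457 genes with such a 250-base window, TTACGTCA in 0.819% and CAAAACA in 5.46%. Sequences are RefSeq's, and 7 of the 9 genes had an entry. Each match is a string of letters in the window. No binding was measured.

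Pck1 had log2 values of 13.56, 13.93, 13.89, 13.82 and 13.86 in vehicle samples, 13.72, 13.92, 13.72, 13.30 and 13.82 at 10 mg/kg, and 13.43, 13.43, 13.68, 13.88 and 13.91 at 30 mg/kg. The groups overlapped at both doses. It averaged 13.70 ± 0.24 at 10 mg/kg and 13.67 ± 0.23 at 30 mg/kg, against 13.81 ± 0.14 in vehicle (SD, n = 5 each), with folds of 0.922 (0.769 to 1.11) and 0.905 (0.755 to 1.08). Without vehicle sample 1, where Pck1 was lowest of its group, the folds were 0.883 (0.734 to 1.06) and 0.867 (0.72 to 1.04).

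Pck2, the mitochondrial isoenzyme, had log2 values of 7.15, 7.06, 7.43, 7.27 and 7.09 in vehicle samples, 7.44, 7.46, 7.37, 7.28 and 7.28 at 10 mg/kg, and 7.27, 7.18, 7.38, 7.10 and 7.37 at 30 mg/kg. At 10 mg/kg it lay 0.17 above vehicle (1.12-fold, 1.01 to 1.26), with an unadjusted p of 0.0418 and an adjusted p of 0.359 by limma, and the groups overlapped. At 30 mg/kg the fold was 1.04 (0.932 to 1.17). Without vehicle sample 1 the fold at 10 mg/kg was 1.11 (0.986 to 1.26). Pc averaged 11.60 ± 0.07 at 10 mg/kg and 11.54 ± 0.13 at 30 mg/kg, against 11.58 ± 0.12 in vehicle (SD, n = 5 each), with folds of 1.01 (0.912 to 1.12) and 0.97 (0.876 to 1.08). Fbp1 averaged 13.30 ± 0.05 at 10 mg/kg and 13.26 ± 0.07 at 30 mg/kg, against 13.24 ± 0.05 in vehicle (SD, n = 5 each), with folds of 1.04 (0.976 to 1.12) and 1.01 (0.948 to 1.09).

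The 9 genes spread over samples by unequal amounts within groups. The pooled SD within groups was 0.72 for G6pc1, 0.39 for Irs2 and 0.32 for Ppargc1a, larger than in 99.1%, 96.3% and 94.5% of genes, against 0.06 for Fbp1 and 0.07 for Foxo1, larger than in 5.1% and 8.96%. The median gene had 0.12. Over the 36 pairs of the 9 genes, with group means removed, Pck1 and G6pc1 had r = 0.58 and rho = 0.67 over 15 samples (permutation p = 0.0152 and 0.015, adjusted p = 0.367 and 0.228), and r = 0.7 without the 2 samples farthest from the median of Pck1. G6pc1 and Irs2 had r = -0.41 and rho = -0.61 (permutation p = 0.0204 and 0.019, adjusted p = 0.367 and 0.228), and r = -0.64 without the 2 farthest samples. Ppargc1a and Irs2 had r = 0.52 and rho = 0.57 (permutation p = 0.112 and 0.0155, adjusted p = 0.806 and 0.228), and r = 0.35 without the 2 farthest samples. Of the 36 pairs, 2 had a permutation p under 0.05 for r and 3 for rho, and 0 passed after adjustment for either.

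Other genes of the pathway were taken from 11 lists chosen with earlier results of these data known, so they are described by counts and medians with no test of a list. Among 18 enzymes and transporters of substrate entry, 0 passed the test at either dose. Gpd1, the cytosolic glycerol-3-phosphate dehydrogenase, stood at 1.26-fold over vehicle at 10 mg/kg (adjusted p = 0.205 by limma), and Ldhb, a lactate dehydrogenase subunit, at 0.821-fold (adjusted p = 0.242). Got2, the mitochondrial aspartate aminotransferase, stood at 0.915-fold at 30 mg/kg (adjusted p = 0.238). Among 7 reversible glycolytic steps 0 were called, and Gapdh and Eno1 stood at 1.12-fold and 1.15-fold at 10 mg/kg (adjusted p = 0.281 and 0.337).

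Among 14 genes of mitochondrial pyruvate and metabolite passage 0 were called, with median differences of 0.12 at 10 mg/kg and 0.04 at 30 mg/kg against -0.02 and -0.03 over all genes. Pdha1, a subunit of pyruvate dehydrogenase, stood at 1.21-fold at 10 mg/kg (adjusted p = 0.0742 by limma), and Pdk1, a kinase that inactivates that enzyme, at 1.35-fold (adjusted p = 0.12). Groups did not overlap at 10 mg/kg for 4 of the 14, Pdha1 among them, against 2.46% of all genes. At 30 mg/kg 0 of the 14 were apart, against 3.2% of all genes. Among 11 opposing or controlling enzymes 0 were called. Pklr, the liver pyruvate kinase that drives glycolysis the other way, stood at 1.65-fold at 10 mg/kg (adjusted p = 0.189) and 1.5-fold at 30 mg/kg (adjusted p = 0.218). Ugp2, which makes UDP-glucose, stood at 0.74-fold at 10 mg/kg (adjusted p = 0.242), and Pfkfb1, the liver enzyme that makes and breaks down fructose-2,6-bisphosphate, at 1.26-fold at 30 mg/kg (adjusted p = 0.39).

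Among 15 insulin signalling genes 0 were called. Irs3, another insulin receptor substrate that rodents carry, stood at 2.87-fold at 10 mg/kg (adjusted p = 0.143 by limma) and 2-fold at 30 mg/kg (adjusted p = 0.239), with overlapping groups. Rictor, a subunit of the mTORC2 complex, stood at 0.84-fold at 30 mg/kg, below all vehicle samples (adjusted p = 0.0979). Akt2, the main Akt kinase of liver, stood at 1.12-fold at 10 mg/kg, above all vehicle samples (adjusted p = 0.247). Insr, the insulin receptor, stood at 1.08-fold at 30 mg/kg (adjusted p = 0.261). Groups were apart for 1 of the 15 at 30 mg/kg, and for 1 higher and 1 lower at 10 mg/kg. The shares of all genes apart were 3.2% and 2.46%. Among 27 transcription factors and coactivators 0 were called, and Foxa3 stood at 0.657-fold at 10 mg/kg and 0.574-fold at 30 mg/kg (adjusted p = 0.242 and 0.131). Nr0b2 (SHP), a repressor of gluconeogenic genes, stood at 0.444-fold at 30 mg/kg (adjusted p = 0.227), and Foxo4 at 1.14-fold at 10 mg/kg (adjusted p = 0.337). The 17 glucagon and cAMP genes had 0 calls, with Pde4d at 1.19-fold at 10 mg/kg (adjusted p = 0.309) and Adcy6 at 0.877-fold at 30 mg/kg (adjusted p = 0.209).

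**Figure D3:**
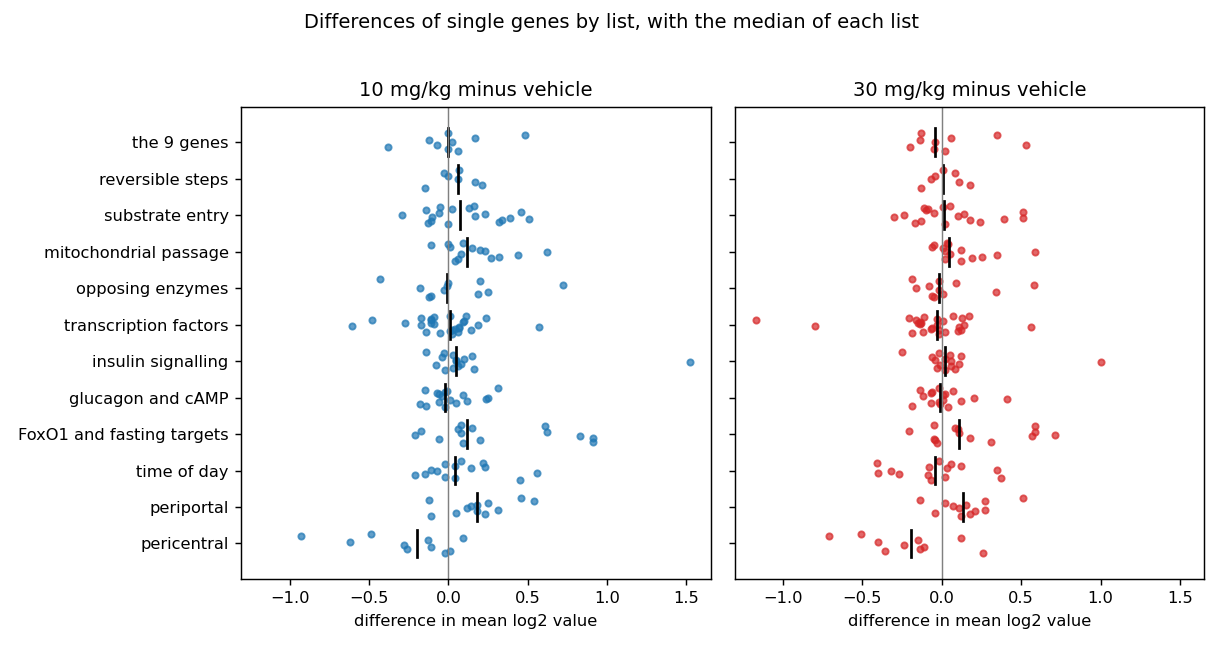
Difference in mean log2 value of each gene of the pathway lists at 10 mg/kg minus vehicle and 30 mg/kg minus vehicle. Points are genes and the black bar is the median of the list. The 9 genes centre on 0 at 10 mg/kg and -0.04 at 30 mg/kg, and the periportal list lies higher, at 0.18 and 0.14, than the pericentral list, at -0.19 and -0.2.

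The 14 FoxO1 and fasting targets had 0 calls. Their median differences at 10 and 30 mg/kg were 0.12 and 0.11, against -0.02 and -0.03 over all genes. At 10 mg/kg 11 had higher and 3 lower means, and at 30 mg/kg 9 and 5. Fgf21, a fasting hormone, stood at 1.88-fold at 10 mg/kg and 1.13-fold at 30 mg/kg (adjusted p = 0.333 and 0.859 by limma). Pdk4 stood at 1.54-fold and 1.5-fold (adjusted p = 0.339 and 0.298). At 30 mg/kg the lowest p in this list were those of Insr, given above, and Ppara, a lipid-sensing nuclear receptor, at 0.865-fold (adjusted p = 0.284). In the zonation lists 1 gene was called, against 0.104% of all genes at 10 mg/kg and 0.146% for both doses. The lists were chosen with earlier results of these data known, so this call is no result about zonation. Slc13a3, a dicarboxylate carrier, was lower at 10 mg/kg than in vehicle (7.98 ± 0.26 against 8.91 ± 0.38, SD, n = 5 each, 0.526-fold, adjusted p = 0.0441), and it passed again for the mean of both doses (0.568-fold, adjusted p = 0.0362). With each of the 15 samples left out in turn it stayed called in 4 fits at 10 mg/kg (adjusted p from 0.0344 to 0.139) and in 6 fits for both doses (0.025 to 0.0912). The 10 measured pericentral genes, which mark hepatocytes around the central vein, had medians of -0.19 and -0.2 at 10 and 30 mg/kg, and the 12 periportal genes, where gluconeogenesis is strongest, had medians of 0.18 and 0.14 with 0 calls. Pck1 is itself in the periportal list, in which Hsd17b13, a lipid droplet protein, stood at 1.45-fold at 10 mg/kg (adjusted p = 0.106 by limma). The 11 measured Kupffer cell markers had a summed level of 12.72 to 13.16 at 10 mg/kg and 12.64 to 13.40 at 30 mg/kg, against 12.98 to 13.54 in vehicle (log2), and 10 of the 11 had lower means at each dose than in vehicle. The 8 measured endothelial markers all had lower means at each dose. The 9 measured stellate cell markers were all lower at 10 mg/kg, with 6 lower and 3 higher at 30 mg/kg. The 3 measured blood cell markers were all lower at 10 mg/kg, with 2 lower and 1 higher at 30 mg/kg. The part of these cell types in the values of the 9 genes was not tested.

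Of 14 time of day genes 0 were called at either dose, yet several varied between samples of a group. Vehicle sample 1 had Dbp at 10.12 against 6.22 to 8.44 in the other vehicle samples, Bmal1 at 5.68 against 7.22 to 8.15 and Igfbp1, an insulin-lowered FoxO1 target, at 6.50 against 8.13 to 8.68. These were named after their values were seen. The low G6pc1 of that sample thus came with high Dbp and low Bmal1, and the part of sampling time was not tested. Correlations were then computed with group means removed, over 252 pairs of the 9 genes with 28 time of day and fasting genes. Of these pairs, 29 had a permutation p under 0.05 for r and 21 for rho. After adjustment 0 passed for r and 1 for rho (Irs2 with Trib1). G6pc1 and Bmal1 had r = 0.66 and rho = 0.26 over 15 samples (permutation p = 0.125 and 0.38), and r = -0.09 without vehicle sample 1. Irs2 and Trib1, a pseudokinase gene from the fasting list, had r = 0.76 and rho = 0.88 (permutation p = 0.00088 and 8e-05, adjusted p = 0.0958 and 0.0202), and r = 0.69 without the 2 farthest samples.

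With group means removed, Ppargc1a had a permutation p under 0.05 for r with 8 of the 14 time of day genes and for rho with 5, and 0 passed after adjustment. It had r = 0.77 with Per3, r = 0.75 with Hlf and r = -0.76 with Clock (permutation p = 0.00138, 0.00152 and 0.00489, adjusted p = 0.0958, 0.0958 and 0.176), and r = 0.67, 0.83 and -0.78 without the 2 farthest samples. The rho were 0.73, 0.74 and -0.58 (permutation p = 0.00523, 0.00226 and 0.0382, adjusted p = 0.209, 0.142 and 0.482). These genes cycle together, so the pairs are not independent of each other. Ppargc1a and Dbp had r = 0.74 and rho = 0.69 (permutation p = 0.00424 and 0.0134, adjusted p = 0.176 and 0.302), and r = 0.56 without the 2 farthest samples. They are also given by band, since Dbp values lay in 2 separate bands, parted at a gap seen in the data. The 7 samples with Dbp from 6.17 to 6.62 (3 vehicle, 1 at 10 mg/kg and 3 at 30 mg/kg) had Ppargc1a from 5.75 to 6.47. The 8 samples with Dbp from 7.83 to 10.12 (2 vehicle, 4 at 10 mg/kg and 2 at 30 mg/kg) had Ppargc1a from 5.92 to 7.03. Within the bands, with group means left in, r was 0.62 (rho = 0.32, exact permutation p = 0.148 and 0.498) and 0.13 (rho = -0.18, exact permutation p = 0.82 and 0.673), over 7 and 8 samples. The mix of doses differed between the bands, so these r are not the same measure as that over 15 samples.

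**Figure D4:**
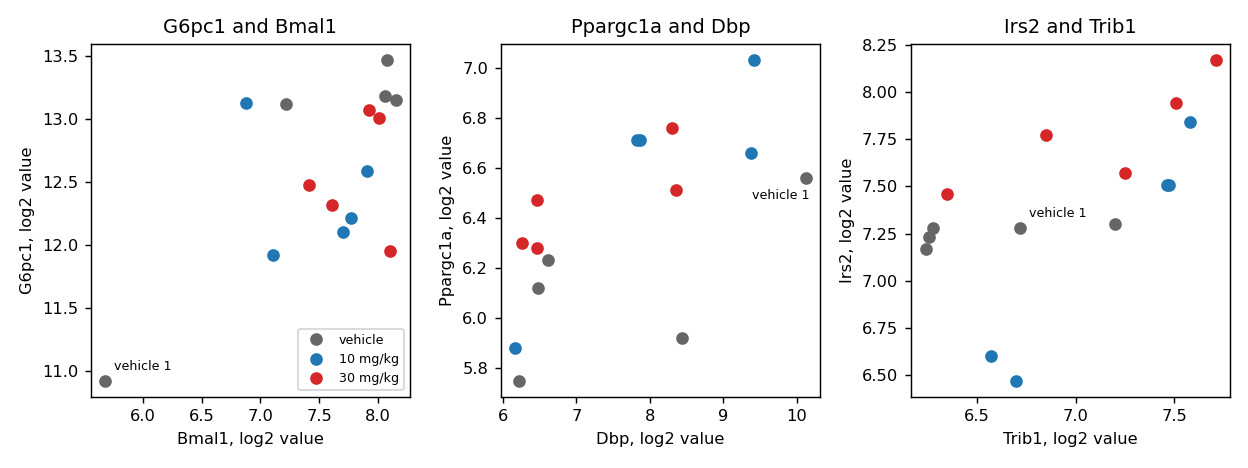
Log2 values of G6pc1 against Bmal1, Ppargc1a against Dbp and Irs2 against Trib1 in the 15 samples, coloured by dose. Group means are kept in the plot, whereas the r and rho over 15 samples in the text have them removed. Vehicle sample 1 lies at Bmal1 5.68 and G6pc1 10.92, away from the others. Dbp leaves a gap between 6.62 and 7.83.

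The genes whose pattern was most like that of each of the 9 were taken as the 3 with the highest r over 15 samples after removal of group means. For G6pc1 these were Tgif1, Cherp and Ciapin1 (r = 0.942, 0.915 and 0.898), for Irs2 Cblb, Net1 and Irf2bpl (r = 0.874, 0.821 and 0.818) and for Ppargc1a Rhobtb3, Tp53i13 and Atxn7l1 (r = 0.899, 0.893 and 0.839). For Pck1 they were Reep2, Zscan10 and Cnn2 (r = 0.807, 0.804 and 0.802), and for Fbp1 Acly, Pex14 and Dixdc1 (r = 0.829, 0.817 and 0.815). The highest r was 0.893 (Stt3a) for Pc, 0.886 (Pofut2) for Pck2, 0.831 (Tmem106c) for Slc37a4 and 0.865 (Nkiras2) for Foxo1. These are the highest of 9596 genes, with no test.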

How the data were processed

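The authors deposited log2 values, 1 per probe set and array, from an Affymetrix rat array. Per the submitters' processing notes, RMA, GCRMA 2.12.1 and limma 2.14.7 were used, and the role of each is unstated there. Normalisation to a common distribution can hide a shift shared by most genes. Of 31099 probe sets, 57 were controls, 20826 had 1 platform symbol, 436 several and 9780 none. For 80 with several symbols, G6pc1 among them, the single accession found in RefSeq gave the name. Probe sets were kept where the fifth highest of 15 values was above the median of 6.10 (15939 kept), and the brightest stood for each gene. Linear models used limma 3.58.1 under R 4.3.3 (3 group means, eBayes, Benjamini-Hochberg over 9596 genes). Exact permutation tests were added after the data were seen, also without vehicle sample 1. Correlations used 100000 permutations within groups. The procedure was tried on simulated normal values with the same spread in every group, unlike the values of Irs2 and G6pc1. Its outcome is not given, and nothing is drawn from it here. The 9 genes and all lists were chosen with earlier results of these data known. List genes given with values were called or among the 2 of lowest p in their list in a comparison. Which of those were printed was chosen after their values were seen, as were Dbp, Bmal1, Igfbp1, Trib1, Per3, Clock and Gadd45a. Precision is limited by the number of arrays. Correlations of deviations between same-numbered samples ran from -0.07 to 0.195. Samples with different numbers were not compared, so pairing was not tested.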

Additional observations from a re-analysis of the deposited data

Results flagged for a closer look

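Of 51 groups of 5 samples (17 probe sets in 3 groups), 5 held a sample far from the others by Dixon's criterion, and chance gives about 1 in 20. Vehicle sample 1 was lowest for the named G6pc1 probe set, at 10.92 with the next at 13.12, and for the second probe set that lists Psme3, Aoc3 and G6pc1, at 9.64 with the next at 12.05. Another probe set with those names had 8.62 in 30 mg/kg sample 5, with the next at 8.5. The Foxo1 value of 30 mg/kg sample 4 was 8.04, with the next at 8.21. The dim Pck2 probe set had 5.69 in 10 mg/kg sample 2, with the next at 5.52.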

How the results depend on the processing

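Of 930 member differences recomputed under the alternatives, 895 kept their sign and side of the threshold, 35 turned sign and 0 gained a call. The cause of the turned signs was not tested. Differences that turned sign lay within about 0.05 of 0, except for Irs2 at 10 mg/kg (0.11 and 0.08) and Foxo1 at 30 mg/kg with a second probe set (0.08). For Foxo1 they were -5e-05 (median centring) and -0.00068 (a dimmer probe set) at 10 mg/kg, 0.01 (mean of probe sets), 0.0068 (quantile normalisation) and 0.08 (second probe set) at 30 mg/kg, 0.01, 0.02 and 0.05 under the same settings for both doses, and 0.05 (second probe set) between doses. Quantile normalisation gave 0.0037 for Pc over both doses and 0.0065 for Slc37a4 at 10 mg/kg. Other probe sets gave 0.04 for Pck2 and 0.05 for Ppargc1a between doses. With 1 sample left out, differences that turned sign ran from -0.0037 to 0.04 (Fbp1, 30 mg/kg), -0.02 to 0.03 (Foxo1, 10 mg/kg), -0.23 to 0.11 (Irs2, 10 mg/kg), -0.02 to 0.06 (Pc, 10 mg/kg), -0.05 to 0.03 (Pc, both doses), -0.13 to 0.03 (Pck1, between doses) and -0.03 to 0.04 (Slc37a4, 10 mg/kg). G6pc1 ran from -0.84 to -0.20 at 10 mg/kg and from -0.66 to -0.02 at 30 mg/kg. Over all genes, calls at 10 mg/kg numbered 3 without the filter, 16 with all probe sets as features and 0 (without vehicle sample 2) to 26 (without 30 mg/kg sample 2) with 1 sample left out, against 10. At 30 mg/kg they numbered 10 with all probe sets and 0 to 5 with 1 sample left out, against 0, and for both doses 25 and 0 (without 10 mg/kg sample 3) to 85 (without vehicle sample 5), against 14. With the replicate block, 0 genes were called at 10 mg/kg and 3 for both doses, and 0 of the 9 genes. Other probe sets of Ppargc1a (2), Pck2 (1) and Foxo1 (1) did not pass the filter on dim signal.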

Other observations

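Gadd45a, a stress gene that FoxO1 can induce, had values in 2 separate bands. Its log2 values were 8.92, 8.52, 8.50, 8.42 and 8.69 in vehicle samples, 10.16, 8.65, 9.73, 8.82 and 9.86 at 10 mg/kg, and 9.65, 9.97, 9.99, 8.06 and 8.23 at 30 mg/kg. The values from 9.65 to 10.16 belong to samples 1, 3 and 5 at 10 mg/kg and samples 1, 2 and 3 at 30 mg/kg. In those samples G6pc1 read 11.92, 12.10 and 12.21 at 10 mg/kg and 11.95, 12.32 and 12.48 at 30 mg/kg. In the other 4 treated samples G6pc1 was 13.13 and 12.59 at 10 mg/kg and 13.01 and 13.07 at 30 mg/kg. Vehicle sample 1 had the lowest G6pc1, 10.92, with Gadd45a at 8.92 in the lower band, and the other 4 vehicle samples had G6pc1 from 13.12 to 13.47. Over all 15 samples with group means removed, G6pc1 and Gadd45a had r = -0.59 and rho = -0.76 (permutation p = 0.00109 and 0.00128, adjusted over 252 pairs 0.0958 and 0.108). The r was -0.56 without the 2 farthest samples and -0.85 without vehicle sample 1. The pair was singled out after these values were seen, and the samples of both bands are pooled in these values.

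Of the 11 measured genes of the glucocorticoid list 0 were called. At 10 mg/kg 7 had higher and 4 lower means than in vehicle, and at 30 mg/kg 5 and 6. Their medians were 0.04 and 0, against -0.02 and -0.03 over all genes. Mt2A, a metallothionein gene from that list, stood at 0.325-fold at 10 mg/kg and 0.435-fold at 30 mg/kg over vehicle (adjusted p = 0.16 and 0.215 by limma). Mt1 stood at 0.812-fold and 0.862-fold (adjusted p = 0.246 and 0.317). Jun, from the immediate early list, stood at 1.5-fold and 1.56-fold (adjusted p = 0.363 and 0.263), and Zfp36 at 1.21-fold at 30 mg/kg (adjusted p = 0.283). Of the 7 measured genes of this list 0 were called, and 6 had higher and 1 lower means at each dose, with medians of 0.13 and 0.18.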
